A study of Mus musculus with 9 samples.

Results

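The 10 genes described here encode the subunits of the transcription factor NF-κB (Nfkb1, Nfkb2, Rel, Rela and Relb) and inhibitors or enzymes that NF-κB itself is known to induce (Nfkbia, Nfkbie, Nfkbiz, Tnfaip3 and Birc3). They were found by symbol among the 23282 gene rows of the series, and each symbol had 1 row. RAW264.7, the line whose RNA was sequenced, is a mouse macrophage line (BALB/c, passage 30 by the labels) that the cytokine RANKL can drive towards osteoclasts. The negative control received RANKL at 50 ng/mL, and the surface protein-treated cells received the same RANKL and 10 µg/mL of proteins extracted from the surface of the bacterium Propionibacterium freudenreichii MJ2. Another group was treated with heat-killed MJ2 at 10000000 cells/mL, and whether RANKL was given to these libraries is not stated library by library in the labels. Treatment lasted 4 days, each group had 3 libraries, and no group carried a genetic change that the labels name. All 9 libraries come from a single line, and nothing says that the replicates were separate cultures, so p-values measure only the spread between these samples, which may be technical.

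NF-κB proteins work as pairs of subunits. At rest the pairs are held in the cytoplasm by IκB proteins, and receptors such as RANK, the TNF receptors and Toll-like receptors release them through IκB kinases that mark the IκB for degradation. The freed subunits switch on many genes of inflammation and survival and also the genes of their own inhibitors, a negative feedback loop. In osteoclast precursors, NF-κB is known to be needed for the induction of the osteoclast regulator Nfatc1, and in macrophages it drives the response to bacterial products.

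The promoters of 7 of the 10 genes were in the RefSeq table used here (GRCm38.p6), and Nfkb1, Relb and Nfkbiz were not matched. The 250 bases before each annotated transcript start were searched on both strands for the κB consensus, the 10-base motif that NF-κB binds. The motif was found for Nfkbia, Nfkbie, Tnfaip3, Rel and Nfkb2 and not for Rela or Birc3, in 7 of the 10 windows of these genes, while 7.25% of all 32851 windows held it. Some matches overlap by all but 1 base, since the motif can be read from either strand. A match says only that these letters are present. The whole windows of Nfkbia and Nfkbie are shown because both genes encode cytoplasmic IκB proteins, of which Nfkbie passed the test with surface proteins and Nfkbia did not, and the matched bases are in capitals. The Nfkbia window lies on the minus strand at chr12:55492648-55492897, and the Nfkbie window on the plus strand at chr17:45555450-45555699.
Nfkbia: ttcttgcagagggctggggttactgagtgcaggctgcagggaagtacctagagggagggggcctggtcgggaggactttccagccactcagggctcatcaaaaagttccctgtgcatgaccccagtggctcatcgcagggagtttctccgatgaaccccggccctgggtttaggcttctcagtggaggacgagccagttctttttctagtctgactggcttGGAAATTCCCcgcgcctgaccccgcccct
Nfkbie: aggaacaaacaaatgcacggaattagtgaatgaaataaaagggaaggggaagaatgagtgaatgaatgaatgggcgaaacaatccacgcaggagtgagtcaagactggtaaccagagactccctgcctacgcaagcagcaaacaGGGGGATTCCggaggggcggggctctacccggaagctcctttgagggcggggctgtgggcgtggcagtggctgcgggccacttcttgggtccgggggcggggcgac

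In the Nfkbia window the match starts 29 bases before the transcript start, and in the Nfkbie window 106 bases before it. Stretches of 30 bases around a match are shown for the other 3 genes, again with the matched bases in capitals. They lie at chr10:19015411-19015440 on the minus strand for Tnfaip3, at chr11:23771042-23771071 on the minus strand for Rel and at chr19:46304688-46304717 on the plus strand for Nfkb2. The Rel and Nfkb2 stretches each hold a pair of matches shifted by 1 base.
Tnfaip3: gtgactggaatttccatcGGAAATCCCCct
Rel: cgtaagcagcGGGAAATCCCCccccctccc
Nfkb2: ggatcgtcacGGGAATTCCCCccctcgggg

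These sequences are those of the reference mouse genome and not of the line that was sequenced. The transcript starts are those of RefSeq. By the gene coordinates given below, which are from GENCODE, the Tnfaip3 and Nfkb2 stretches lie inside the gene. The Tnfaip3 window also held a second match, 125 bases before the transcript start. The Nfkb2 window held a further match 11 bases before the start. The other windows of Nfkb2 held matches 236 and 225 bases before theirs.

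Values are given on the log2 scale as deposited, where 1 unit is a factor of 2, or as adjusted reads, which are 2 raised to the deposited value, less 1. The libraries held between 5930926 and 6503682 adjusted reads in total, and the lowest value of any of the 10 genes was 29.9 adjusted reads, so none was near the limit of detection. Libraries were made from the 3′ ends of mRNAs, so a gene's reads do not grow with its length and levels were not divided by length. Of the 10 macrophage markers examined, 9 were detected in every library, and their summed level was 19161 to 20501 adjusted reads in the negative control, 25120 to 26235 with heat-killed MJ2 and 21206 to 22710 with surface proteins. Single markers moved more than this sum, and of the 9 tested 4 rose and 1 fell with surface proteins (against 10.2% and 7.32% of all genes tested), with a median log2 fold change of 1.15. With heat-killed MJ2 3 of the 9 rose (against 3.37% of all genes tested), with a median of 1.03. The 13 osteoclast markers summed to 28603 to 38449 adjusted reads in the negative control, 18909 to 23412 with heat-killed MJ2 and 6876 to 9983 with surface proteins. In RNA from whole cultures, fewer cells of a type and less RNA per cell cannot be told apart, and the part of this shift in the results on NF-κB genes was not tested. Of the 15 markers of other cell types, 10 were at or under 3 adjusted reads in every negative control library, as were 10 with heat-killed MJ2 and 11 with surface proteins, among them Cdh5, Krt18, Cd3e and Ms4a1. Their summed level was 25.6 to 84.7 adjusted reads in the negative control, 167 to 293 with surface proteins and 1947 to 2137 with heat-killed MJ2. S100a8, a neutrophil marker, made up 113 to 209 of it with surface proteins and 1899 to 2056 with heat-killed MJ2. S100a8 had at most 0.11 adjusted reads in a negative control library. S100a9, also among these markers, had mean log2 values of 0.001 with RANKL alone, 0.337 with heat-killed MJ2 and 0.001 with surface proteins. Which cells the S100a8 reads came from was not tested.

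Each comparison was fitted with limma across every gene that reached 10 adjusted reads in 3 or more of its 6 libraries. To be called, a gene had to have an adjusted p below 0.05 and to differ at least 2-fold. All 10 genes passed the filter in every comparison. With surface proteins against the negative control, 1 of the 10 was higher (10.2% of the 10874 genes tested were called higher) and 1 was lower (7.32% of all genes tested). The gene that rose was Nfkbiz and the gene that fell was Nfkbie. For 6 of the 10 the libraries of the groups did not overlap, against 48.4% of all genes tested. The median log2 fold change of the 10 genes was 0.50, and that of all genes tested was -0.008.

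With heat-killed MJ2 against the negative control, none of the 10 genes was called by limma (3.37% of the 10814 genes tested were called higher and 0.897% lower). At an unadjusted p under 0.05 with the same fold limit the count was 1. The libraries of the groups did not overlap for 4 of the 10, against 30.2% of all genes tested, and the median log2 fold change was 0.24. Between surface proteins and heat-killed MJ2, which are not matched doses, 1 gene was higher with surface proteins (5.08% of the 10916 genes tested) and none was lower (4.97% of all genes tested), although Nfkbie passed at an unadjusted p under 0.05. The groups did not overlap for 5 of the 10, against 42.3% of all genes tested, and the median was 0.075. The shares called and the shares without overlap among the 10 were near those of all genes in each comparison. The 2 comparisons against RANKL alone share the same 3 control libraries.

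**Figure D1:**
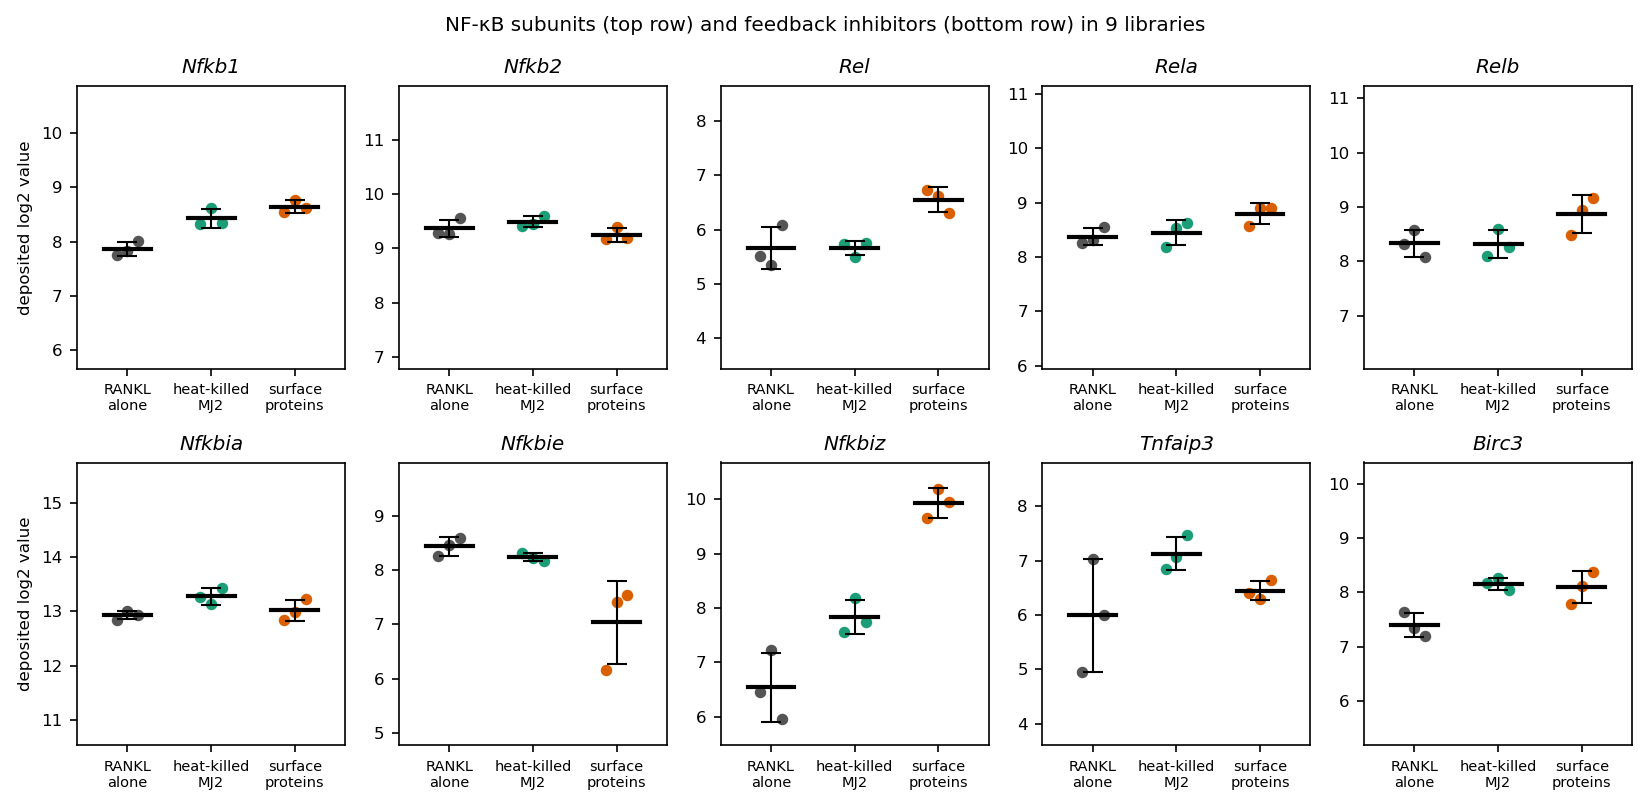
Deposited log2 values of the 10 genes in each library (points), with the mean (bar) and SD (whiskers) of the 3 libraries of each group. Each panel spans the same number of log2 units around its own centre. Nfkbiz was higher in all 3 libraries with surface proteins (9.65 to 10.19) than in any other library, and Nfkbie was lower in all 3 (6.16 to 7.54).

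Nfkbiz encodes a nuclear IκB protein that is itself induced by Toll-like receptor and interleukin-1 signals and that, unlike the cytoplasmic inhibitors, can also co-activate a set of secondary response genes. Its gene lies on the minus strand of chromosome 16 from 55811375 to 55838899 (GRCm38). The negative control libraries had log2 values of 6.45, 7.22 and 5.96. Those with heat-killed MJ2 had 7.56, 8.18 and 7.75, and those with surface proteins 9.65, 10.19 and 9.94. The groups did not overlap at any point, with the surface protein libraries highest and the heat-killed MJ2 libraries between. In adjusted reads the means were 98.4, 230 and 985. With surface proteins Nfkbiz rose 10.5-fold over the negative control, or by 3.39 on the log2 scale (standard error 0.34, 95% interval 2.57 to 4.21, adjusted p = 0.00168 from limma). By the size of its change it ranked 257 among the genes tested in this comparison. It was called in all 15 alternative fits, with log2 fold changes from 3.10 to 3.73.

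Against heat-killed MJ2, Nfkbiz was 4.29-fold higher with surface proteins, or by 2.10 on the log2 scale (standard error 0.22, adjusted p = 0.00666 from limma), and this was called in all 15 alternative fits. The difference between heat-killed MJ2 and the negative control was 1.29 (standard error 0.35, 95% interval 0.45 to 2.12), and its adjusted p of 0.0899 from limma did not pass. This last call depended on the settings. It passed in 3 of the 15 alternatives, which were the fit over all 9 libraries, the fit with both a mean-variance trend and robust moderation, and the fit without negative control replicate 2 (log2 fold change 1.63), and its adjusted p ran from 0.00541 to 0.202 over them. The SD of the negative control, 0.63, was 4.09 times what counting reads alone would give.

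Nfkbie encodes IκBε, a cytoplasmic inhibitor with a slower feedback course than IκBα. Its gene is on the plus strand of chromosome 17 from 45555703 to 45563169, directly after the promoter shown above. Its 3 negative control libraries held 303, 351 and 385 adjusted reads, followed by 317, 298 and 287 with heat-killed MJ2 and 70.4, 170 and 184 with surface proteins. All 3 surface protein libraries lay below the 6 others, and replicate 1 was less than the other 2 by more than the whole range of either other group. With surface proteins Nfkbie fell by 1.40 on the log2 scale (standard error 0.38, 95% interval -2.32 to -0.48, adjusted p = 0.0374 from limma), a 2.63-fold decrease. This call rested on single libraries. Without surface protein replicate 1 the log2 fold change was -0.96, short of the fold limit at an adjusted p of 0.0189 from limma. Without negative control replicate 1, 2 or 3 or surface protein replicate 2 it was -1.49, -1.38, -1.32 and -1.59, and the adjusted p from limma was 0.0725, 0.0848, 0.0983 and 0.0599. With no filter on low values it was 0.0815. Without surface protein replicate 3 the log2 fold change was -1.65 and passed (adjusted p = 0.0404 from limma). Of the 15 alternative fits, 9 called Nfkbie.

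Between heat-killed MJ2 and the negative control the difference of Nfkbie was -0.20 (95% interval -0.55 to 0.15, adjusted p = 0.474 from limma), with overlapping libraries. Between surface proteins and heat-killed MJ2 it was -1.20 (95% interval -2.10 to -0.30, adjusted p = 0.0721), and the groups did not overlap. Without surface protein replicate 1 this difference was -0.76. It passed when only genes reaching 10 adjusted reads in all 6 libraries were tested (adjusted p = 0.0476 from limma), in the fit of all 9 libraries (adjusted p = 0.0371) and with trended and robust moderation (adjusted p = 0.00919), and over all alternatives its adjusted p ran from 0.00919 to 0.172.

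Nfkbia encodes IκBα, the main cytoplasmic inhibitor and the fastest of the feedback genes. It lies on the minus strand of chromosome 12 from 55489410 to 55492647. It was by far the most abundant of the 10 genes, ranked 72 of all gene rows by mean level in the negative control, 37 with heat-killed MJ2 and 71 with surface proteins. The libraries held 7367, 8202 and 7863 adjusted reads with RANKL alone, 9822, 8982 and 11097 with heat-killed MJ2 and 7336, 8134 and 9527 with surface proteins. The surface protein libraries overlapped the negative control and the heat-killed MJ2 libraries, while all 3 heat-killed MJ2 libraries lay above the negative control. On the log2 scale it differed from the negative control by 0.086 with surface proteins (95% interval -0.29 to 0.46, adjusted p = 0.706 from limma) and by 0.35 with heat-killed MJ2 (95% interval 0.008 to 0.69, adjusted p = 0.212). Both intervals lie within the 2-fold limit. Without surface protein replicate 3, the first difference was -0.015.

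Tnfaip3 encodes a ubiquitin-editing enzyme that shuts down signalling upstream of the IκB kinases, and Birc3 encodes a ubiquitin ligase of the inhibitor of apoptosis family that acts in TNF receptor complexes and in non-canonical NF-κB signalling. Tnfaip3 lies on the minus strand of chromosome 10 from 19000910 to 19015657 and Birc3 on the minus strand of chromosome 9 from 7848699 to 7873186. Tnfaip3 had 29.9, 129 and 63.3 adjusted reads with RANKL alone, 115, 134 and 176 with heat-killed MJ2 and 84.2, 77.7 and 98.8 with surface proteins. The negative control spanned the range of the surface protein libraries and its SD, 1.04 on the log2 scale, was the largest of any of the 10 genes in any group. Its difference from the negative control on the log2 scale was 0.46 with surface proteins (95% interval -0.75 to 1.66, adjusted p = 0.526 from limma) and 1.14 with heat-killed MJ2 (95% interval -0.10 to 2.37, adjusted p = 0.255), and both intervals reach beyond the 2-fold limit. Without negative control replicate 1 the differences were -0.065 and 0.61, and without negative control replicate 2 they were 0.97 and 1.65. All 3 surface protein libraries lay below the 3 with heat-killed MJ2, a log2 difference of -0.68 (95% interval -1.17 to -0.19, adjusted p = 0.0641 from limma).

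For Birc3 the log2 values were 7.64, 7.35 and 7.20 in the negative control, 8.17, 8.26 and 8.04 with heat-killed MJ2 and 7.79, 8.12 and 8.38 with surface proteins. Both treated groups lay above the negative control and overlapped each other. On the log2 scale the difference from the negative control was 0.70 with surface proteins (standard error 0.21, 95% interval 0.20 to 1.21, adjusted p = 0.049 from limma) and 0.76 with heat-killed MJ2 (standard error 0.16, 95% interval 0.37 to 1.16, adjusted p = 0.0499). Both were under the fold limit, so neither was called. The adjusted p from limma ran from 0.014 to 0.129 over the alternatives for surface proteins and from 0.00946 to 0.156 for heat-killed MJ2. The difference between the treated groups was -0.062 (95% interval -0.51 to 0.39).

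**Figure D2:**
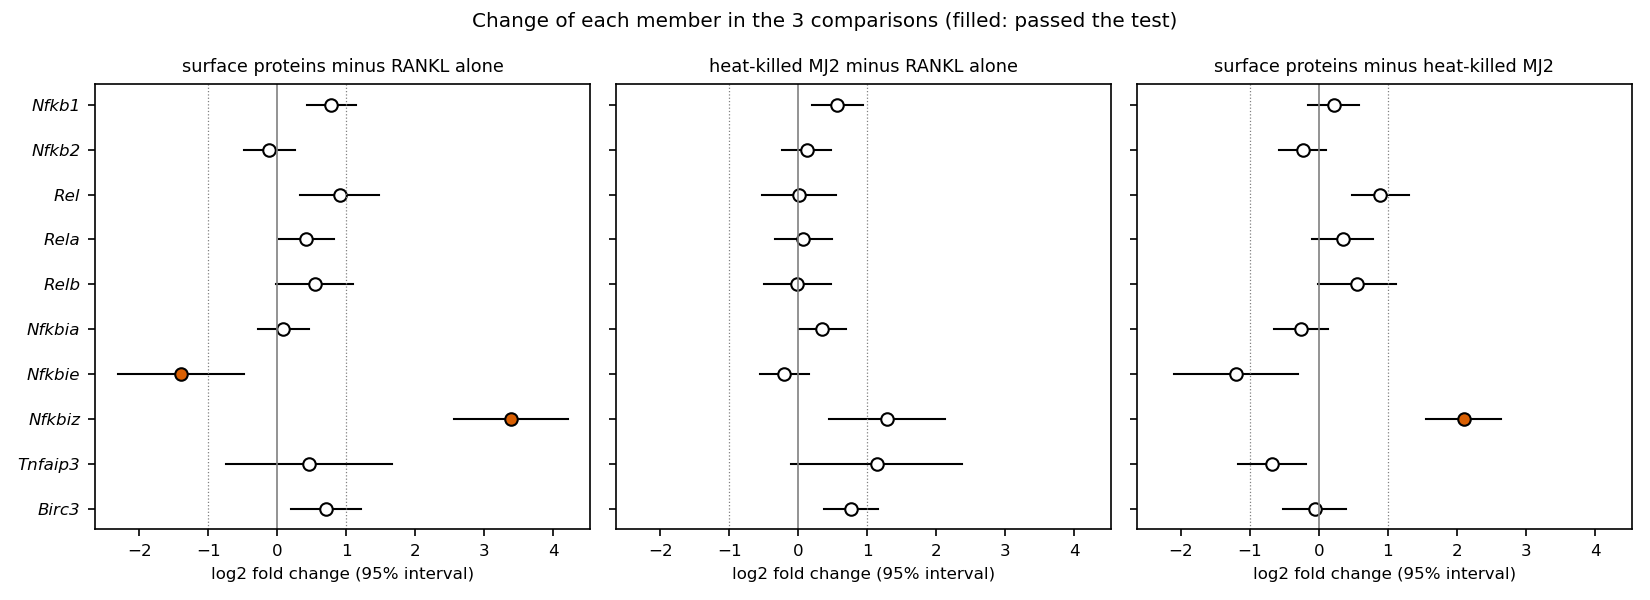
Log2 fold change (circles) with its 95% interval (lines) of the 10 genes in each of the 3 comparisons, from limma. Filled circles passed the adjusted p and the fold limit, drawn as dotted lines at 1 and -1. The filled circles are Nfkbiz at 3.39 and Nfkbie at -1.40 for surface proteins against RANKL alone, and Nfkbiz at 2.10 for surface proteins against heat-killed MJ2.

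None of the 5 subunit genes was called in any comparison by limma. On the adjusted p alone, 2 of the 5 were under 0.05 with surface proteins (Nfkb1 and Rel), as were 29.1% of all genes tested. Their median log2 fold change was 0.54 with surface proteins and 0.075 with heat-killed MJ2. The subunits fall into those with a transactivation domain (Rela, Rel and Relb) and the precursors that are processed to DNA-binding partners (Nfkb1 and Nfkb2).

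Nfkb1, on the minus strand of chromosome 3 from 135584655 to 135691547, encodes the precursor whose processed form pairs with Rela in the canonical pathway. Its log2 values were 7.76, 7.82 and 8.01 in the negative control, 8.33, 8.63 and 8.34 with heat-killed MJ2 and 8.55, 8.77 and 8.61 with surface proteins. Both treated groups were above the negative control in every library and overlapped each other. With surface proteins the log2 fold change was 0.78 (standard error 0.15, 95% interval 0.43 to 1.13, adjusted p = 0.0115 from limma), a 1.72-fold difference that stayed under the fold limit in all 15 alternatives. With heat-killed MJ2 it was 0.57 (95% interval 0.20 to 0.94, adjusted p = 0.0901 from limma).

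Nfkb2, on the plus strand of chromosome 19 from 46304320 to 46312385, encodes the precursor of the non-canonical pathway. It had 620, 617 and 748 adjusted reads with RANKL alone, 678, 700 and 776 with heat-killed MJ2 and 575, 674 and 581 with surface proteins. The negative control overlapped both treated groups, while the surface protein libraries all lay below those with heat-killed MJ2. Neither difference from the negative control passed, with -0.12 on the log2 scale (95% interval -0.49 to 0.26) for surface proteins and 0.12 (95% interval -0.23 to 0.47) for heat-killed MJ2. The log2 difference between the treated groups was -0.24 (95% interval -0.57 to 0.10, adjusted p = 0.272 from limma). Psd, on the other strand, overlaps the 3′ end of Nfkb2. It had 111 to 220 adjusted reads over the 9 libraries, and whether reads were counted by strand is not stated.

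Rela, on the plus strand of chromosome 19 from 5637483 to 5648130, encodes the main activating subunit of the canonical pair. Its log2 values were 8.25, 8.32 and 8.55 in the negative control, 8.19, 8.53 and 8.63 with heat-killed MJ2 and 8.57, 8.90 and 8.91 with surface proteins. The surface protein libraries lay above the negative control by a narrow margin and overlapped the heat-killed MJ2 libraries. With surface proteins the log2 fold change was 0.42 (95% interval 0.019 to 0.82, adjusted p = 0.106 from limma), and with heat-killed MJ2 it was 0.075 (95% interval -0.34 to 0.49).

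Rel, on the minus strand of chromosome 11 from 23736847 to 23770970, encodes c-Rel, an activating subunit known from lymphocytes and macrophages. It was the least abundant of the 10 genes in the 2 groups other than the surface protein group. Its libraries held 45.0, 40.0 and 67.2 adjusted reads with RANKL alone, 52.2, 44.5 and 53.0 with heat-killed MJ2 and 106, 98.0 and 77.9 with surface proteins. All 3 surface protein libraries lay above the 6 others. On the log2 scale it was higher by 0.90 than the negative control (standard error 0.24, adjusted p = 0.0347 from limma) and by 0.89 than heat-killed MJ2 (standard error 0.17, adjusted p = 0.0215), both just under the 2-fold limit. The adjusted p from limma was above 0.05 in several alternatives. Against the negative control it was 0.0952, 0.0861, 0.0865 and 0.0998 without negative control replicate 1 or 2 or surface protein replicate 1 or 2, 0.0653 with no filter on low values and 0.0846 under the replicate block. Against heat-killed MJ2 it was 0.0706, 0.0626 and 0.0662 without heat-killed MJ2 replicate 1 or 3 or surface protein replicate 2, and 0.0508 under the replicate block. The difference passed both thresholds against the negative control without negative control replicate 3 (1.12) and without surface protein replicate 3 (1.03), and against heat-killed MJ2 without surface protein replicate 3 (1.02). With heat-killed MJ2 the difference from the negative control was 0.008 (95% interval -0.53 to 0.54).

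Relb, on the minus strand of chromosome 7 from 19606217 to 19629438, encodes the partner of processed Nfkb2 in the non-canonical pathway. Its log2 values were 8.33, 8.58 and 8.09 in the negative control, 8.09, 8.60 and 8.27 with heat-killed MJ2 and 8.49, 8.96 and 9.17 with surface proteins. The 3 groups overlapped. The log2 fold change was 0.54 with surface proteins (95% interval -0.020 to 1.10, adjusted p = 0.129 from limma) and -0.012 with heat-killed MJ2 (95% interval -0.50 to 0.47, adjusted p = 0.98).

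Differences between 2 genes within a library were also taken, in which a single scaling factor for the whole library cancels, while a normalization that acts on ranks, such as quantile normalization, does not. For 5 such pairs the 3 comparisons gave 15 exact two-sided permutation tests, and with 3 libraries against 3 the smallest p possible is 0.1, or 0.136 after Benjamini-Hochberg adjustment over the 15. Nfkb2 exceeded Nfkb1 by 1.52, 1.45 and 1.54 on the log2 scale in the negative control, by 1.08, 0.83 and 1.26 with heat-killed MJ2 and by 0.63, 0.62 and 0.57 with surface proteins. The 3 groups did not overlap, and the SD within the negative control (0.046) and the surface protein group (0.031) was small beside the change of -0.90 between them (exact p = 0.1). With heat-killed MJ2 the change from the negative control was also at the smallest possible p. Relb minus Rela was -0.041 ± 0.37 (SD, n = 3) in the negative control, -0.13 ± 0.22 with heat-killed MJ2 and 0.078 ± 0.18 with surface proteins, and the groups overlapped (exact permutation p = 0.4 to 0.8).

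Of the inhibitors, Nfkbia exceeded Rela by 4.56 ± 0.15 (SD, n = 3) on the log2 scale in the negative control, 4.83 ± 0.23 with heat-killed MJ2 and 4.22 ± 0.12 with surface proteins, where it lay below both other groups in every library. Nfkbie minus Nfkbia was -4.50 ± 0.13 in the negative control, -5.04 ± 0.20 with heat-killed MJ2 and -5.98 ± 0.61 with surface proteins (SD, n = 3 each). Those 3 groups did not overlap, although Nfkbie alone overlapped between heat-killed MJ2 and the negative control. Nfkbiz minus Nfkbia rose from -6.39 ± 0.60 to -5.45 ± 0.43 and -3.09 ± 0.26 in the same order, again without overlap. All of these comparisons without overlap had an exact permutation p of 0.1.

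**Figure D3:**
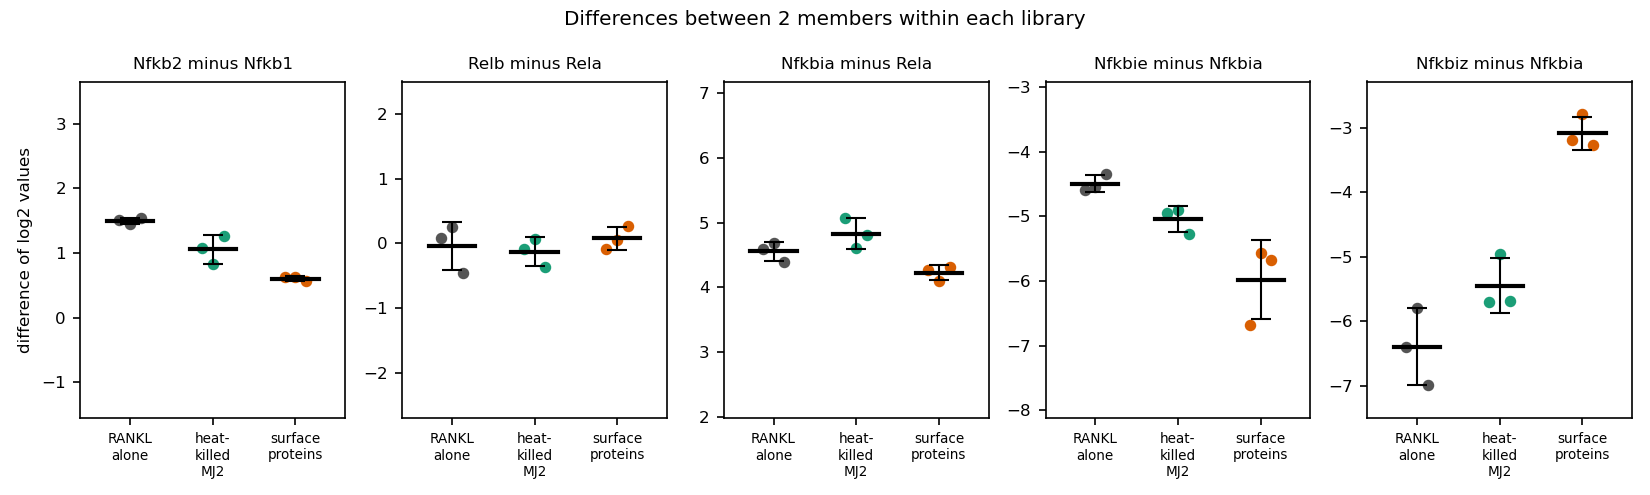
Differences of deposited log2 values between 2 genes within each library (points), with the mean (bar) and SD (whiskers) of the 3 libraries of each group. Nfkb2 minus Nfkb1 was 1.50 in the negative control, 1.06 with heat-killed MJ2 and 0.61 with surface proteins, and Nfkbiz minus Nfkbia was -6.39, -5.45 and -3.09.

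The other genes of the pathway were described from lists by role. Of the 4 other members of the IκB family, 2 rose and 1 fell with surface proteins (against 10.2% and 7.32% of all genes tested), and the median log2 fold change was 0.69. Bcl3, a nuclear IκB protein that binds the processed Nfkb1 and Nfkb2 products, rose by 1.72 (adjusted p = 0.00222 from limma), and Nfkbib, the cytoplasmic inhibitor IκBβ, rose by 1.23 (adjusted p = 0.00607). Nfkbid, another nuclear IκB protein, fell by 1.52 (adjusted p = 0.00456). Thus among the IκB genes with surface proteins, nuclear proteins were called in both directions (Nfkbiz and Bcl3 higher, Nfkbid lower), as were cytoplasmic ones (Nfkbib higher, Nfkbie lower). None of the 4 passed with heat-killed MJ2, where Bcl3 had a log2 fold change of 0.67 (adjusted p = 0.12), Nfkbib 0.62 (adjusted p = 0.0846) and Nfkbid -0.66 (adjusted p = 0.0906). Directly compared, Bcl3 was higher with surface proteins than with heat-killed MJ2 by 1.05 (adjusted p = 0.0145 from limma), a call that was lost when each library was scaled to the same total. Nfkbib (0.61, adjusted p = 0.0629) and Nfkbid (-0.86, adjusted p = 0.0594) did not pass in that comparison.

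Of the 11 genes of the IκB kinase complex and its activating kinases, 1 rose with surface proteins (against 10.2% of all genes tested) and 10 did not pass, and the median log2 fold change was 0.11. The gene that rose was Ikbke, an IκB kinase-related enzyme that is induced in inflammation, which went from 4.16 ± 0.77 (SD, n = 3) on the log2 scale to 7.50 ± 0.043, a change of 3.34 (adjusted p = 0.00232 from limma). With heat-killed MJ2 it was also the 1 gene of the 11 that rose (against 3.37% of all genes tested), by 3.10 (adjusted p = 0.0117 from limma), and the median was -0.077. Of the 16 adaptors close to the receptors, 1 rose and 1 fell with surface proteins (against 10.2% and 7.32% of all genes tested). Ticam2, an adaptor of Toll-like receptor signalling, rose by 3.33 (adjusted p = 6.5e-05 from limma), and Traf5, an adaptor of TNF receptor family members, fell by 1.60 (adjusted p = 0.031). With heat-killed MJ2 Ticam2 was the 1 of the 16 that rose (against 3.37% of all genes tested), by 1.01 (adjusted p = 0.0274 from limma), at the edge of the fold limit, and it did not pass after quantile normalization. Against heat-killed MJ2 it was 2.31 higher with surface proteins (adjusted p = 0.00364 from limma).

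Of 16 other negative regulators, Traip passed the filter through the negative control alone in the comparison with surface proteins, so it had to differ there to be tested. Of the other 15, 5 rose and none fell with surface proteins (against 10.2% and 7.32% of all genes tested), and the median of their log2 fold changes was 0.76. Irak3, a kinase-like protein that dampens Toll-like receptor signalling, rose by 5.39 with surface proteins (adjusted p = 0.00144 from limma) and by 4.18 with heat-killed MJ2 (adjusted p = 0.0107). Usp18, a protease that removes the ubiquitin-like protein ISG15 and restrains interferon signalling, rose by 5.03 (adjusted p = 4.6e-04 from limma) and 4.38 (adjusted p = 0.00356). Irak3 and Usp18 were low in the negative control, at 3.49 ± 1.07 and 3.87 ± 0.63 (SD, n = 3) on the log2 scale. Nlrc5, which is also known as an activator of MHC class I genes, rose by 1.82 (adjusted p = 0.0161 from limma) and 1.12 (adjusted p = 0.0496). Traip, a ubiquitin ligase that also acts in DNA replication, was at 5.74 ± 0.45 (SD, n = 3) on the log2 scale with RANKL alone, 6.22 ± 0.31 with heat-killed MJ2 and 2.65 ± 0.58 with surface proteins. With heat-killed MJ2, 3 of the 16 rose (against 3.37% of all genes tested) and none fell, and the median was 0.44. After quantile normalization 2 of the 16 rose there.

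A list of 40 genes known as targets of NF-κB was counted in the same way. With surface proteins 33 of the 40 could be tested, but 5 of them (Cd40, Ptgs2, Lcn2, Il23a and Ccrl2) passed the filter on low values through the treated group alone, so they had to differ to be tested. Of the other 28, 13 rose and 1 fell (against 10.2% and 7.32% of all genes tested), and their median log2 fold change was 0.89 (-0.008 over all genes tested). With heat-killed MJ2 34 could be tested, 6 of them (Il1b, Ccl22, Cd40, Ptgs2, Lcn2 and Ccrl2) through the treated group alone. Of the other 28, 12 rose and 1 fell (against 3.37% and 0.897% of all genes tested), with a median of 1.05 (-0.004 over all genes tested). The 2 comparisons share their controls. With the genes admitted through the treated group included, the counts were 18 higher and 1 lower of 33, and 16 higher and 1 lower of 34. The genes under the filter included Il1a, Il6, Cxcl1, Vcam1 and Il12b in both. Lcn2, an iron-sequestering protein, exceeded the negative control at least 838-fold with surface proteins and was at least 53.6-fold higher with heat-killed MJ2, measured against a floor of 3 reads per library because no negative control library reached it. Both bounds leaned on the highest library of the group. Without surface protein replicate 2 the first was 569-fold, and without heat-killed MJ2 replicate 2 the second was 33.9-fold. Ptgs2, the inducible cyclooxygenase, was against the same floor, with all libraries kept, at least 62.6-fold and at least 101-fold higher. The neutrophil chemokine Cxcl2 rose by 8.10 (adjusted p = 0.00127 from limma) and 7.68 (adjusted p = 0.00542), and Nos2, the inducible nitric oxide synthase, rose by 5.62 (adjusted p = 0.00619) and 5.31 (adjusted p = 0.0257). Their negative control levels were 5.39 ± 1.58 and 3.03 ± 1.83 (SD, n = 3) on the log2 scale, so the sizes of these changes are uncertain. The gene that was lower in both was Nfatc1, named here after its values were seen and also counted among the osteoclast markers. It fell by 3.09 on the log2 scale with surface proteins (adjusted p = 0.0021 from limma) and fell by 1.12 with heat-killed MJ2 (adjusted p = 0.013). Between surface proteins and heat-killed MJ2, 5 of 35 targets were higher and 5 lower (against 5.08% and 4.97% of all genes tested), 25 did not pass, and the median was 0.058.

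**Figure D4:**
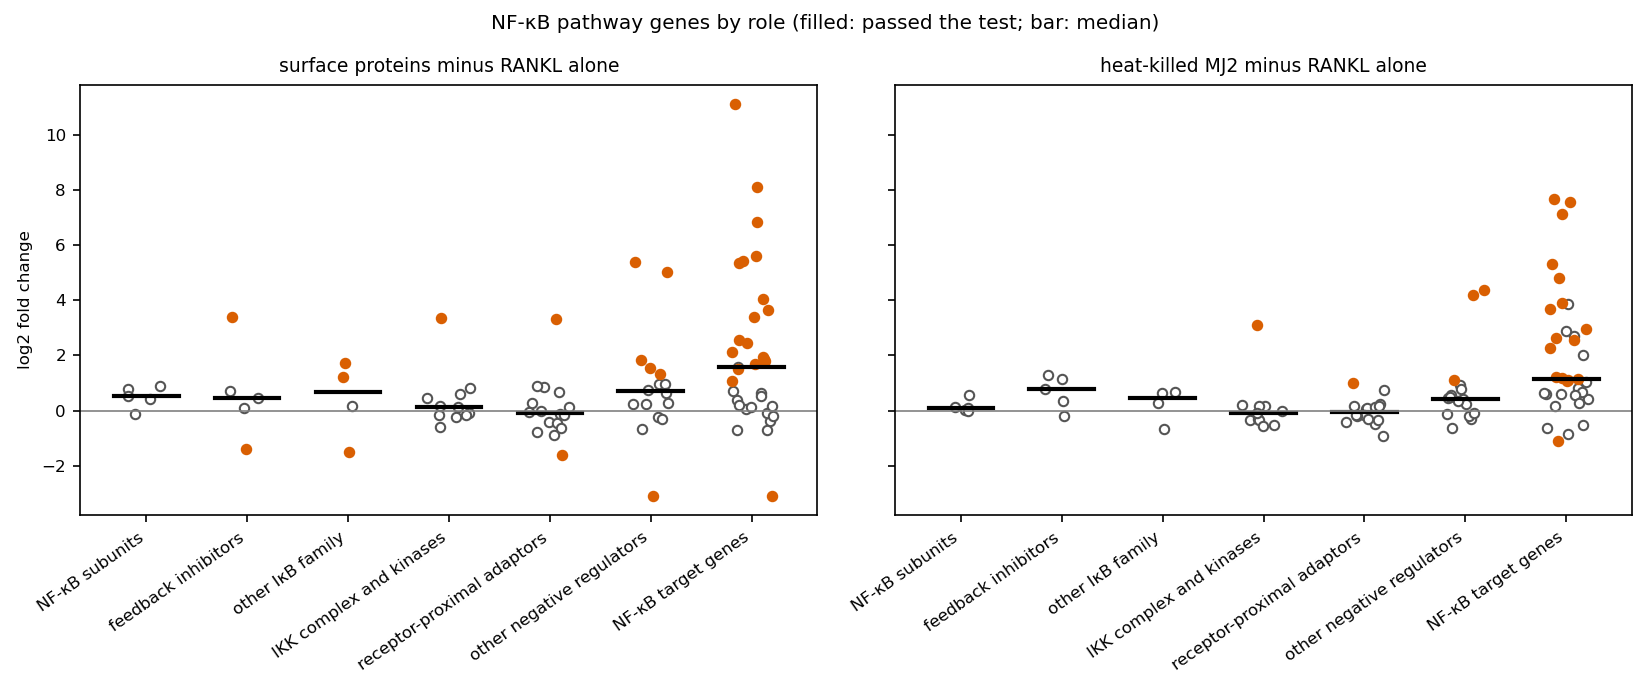
Log2 fold change of each tested gene of 7 lists of NF-κB pathway genes (circles) and the median of each list (bars) for surface proteins and for heat-killed MJ2, each against RANKL alone. Filled circles passed the adjusted p and the fold limit. The medians of the subunits were 0.54 and 0.075 and those of the target genes 1.58 and 1.15, which include 5 and 6 genes that passed the filter through the treated group alone.

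The pattern of the 10 genes over the 9 libraries was summarised as the mean of their values, each standardised over the libraries. It was lowest in the negative control (-0.90, -0.46 and -0.40), from -0.037 to 0.45 with heat-killed MJ2 and from -0.18 to 0.63 with surface proteins, where replicate 1 lay between the negative control and the heat-killed MJ2 libraries. Its correlation with the single genes ran from 0.87 for Nfkb1 to -0.26 for Nfkbie, so the mean does not stand for every gene in it. Among the 11183 other genes ranked, those most like it by Pearson's r over the 9 libraries, which share their groups, were Npm3 and Bcap29 (0.97 each), Mcoln2 (0.97), Cebpe (0.96) and Nlrp3 (0.96). Mcoln2 had group means of 4.63, 6.02 and 6.41 on the log2 scale in the negative control, with heat-killed MJ2 and with surface proteins, and Nlrp3, the inflammasome sensor, had 6.90, 7.91 and 7.93.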

How the data were processed

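The values deposited by the authors are log2 values (of normalised reads plus 1, to 3 decimals) for 23282 gene rows per library. By the study's methods, a QuantSeq 3′ kit was sequenced as single-end reads and quantile normalization was applied, although the sorted columns are not identical, so the scaling of the values is not known. The submitters' processing notes name Bowtie2, bedtools and the build mm10 (GRCm38), and strand and shared reads are not described. Each comparison used its own 6 libraries in limma 3.58.1 (R 4.3.3, lmFit and eBayes), with Benjamini-Hochberg adjustment over all genes tested. The fits were tested on simulated data. Within-library differences were compared by exact permutation in Python 3.11.15 with scipy 1.17.1. Coordinates are from GENCODE M21 on GRCm38 and promoters from RefSeq. Groups and replicate numbers came from the labels. The genes and lists were chosen with earlier results of these data known. Besides the 10 genes, up to 4 genes of a pathway list were named for their changes, those called with the largest change with surface proteins, then with heat-killed MJ2. Nfatc1 of the target list was named in addition. Libraries of the same group differed by more than sampling noise (chi-square per degree of freedom 6.90 to 18.5), and the floor of 3 reads and counting SDs cover counting error only. Deviations from the group means correlated at 0.02 to 0.11 between libraries with the same number (9 pairs). Between libraries with different numbers they correlated at -0.076 to 0.031 (18 pairs). A small part shared by number was thus seen, but not above 0.1 in every pair. The main fits did not take the numbers as pairs. Alternatives were quantile normalization, equal totals, other filters and constants, all 9 libraries, a fit with a mean-variance trend and robust moderation together, a replicate block, other thresholds and leaving out each library.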

Additional observations from a re-analysis of the deposited data

How the results depend on the processing

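The number of genes called with surface proteins against RANKL alone was 1902, 3163 with no fold limit and 1357 to 1822 with each library left out; 2 of the 10 NF-κB genes were called, 1 with no filter on low values, 5 with no fold limit and 1 to 3 with a library left out. For heat-killed MJ2 against RANKL alone 461 genes were called, 267 with no filter, 289 under the replicate block, 799 at an unadjusted p and 81 to 347 with a library left out (81, 155 and 116 without heat-killed MJ2 replicate 1, 2 and 3, and 300.0 without negative control replicate 3). Of the 10 NF-κB genes 0 were called there, and 1 over all 9 libraries, with trend and robust moderation together, at an unadjusted p and with no fold limit, with a range of 0 to 1. With no fold limit that gene was Birc3, and in the other named settings it was Nfkbiz. For surface proteins against heat-killed MJ2 1098 genes were called, 1949 with no fold limit and 362 to 1176 with a library left out (362 and 415 without heat-killed MJ2 replicate 1 and 3, 591 and 672 without surface protein replicate 2 and 3). Of the 10 genes 1 was called there, and 2 with a strict filter, over all 9 libraries, with trend and robust moderation together, at an unadjusted p and with no fold limit, with a range of 1 to 2. Beside Nfkbiz, the added gene was Rel with no fold limit and Nfkbie in the other named settings. Each library correlated best with its own number, though weakly, and the main fits leave this out. The replicate block changed no call among the 10 genes.

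Among the 10 genes, signs turned for differences whose 95% interval holds 0, and the cause was not tested. Rel with heat-killed MJ2 was -0.094 after quantile normalization and -0.14 to 0.23 with each library left out, Relb there was 0.018 at equal totals and -0.15 to 0.11 with a library left out, and Rela -0.016 to 0.20. With surface proteins Nfkbia ran from -0.015 to 0.17 and Tnfaip3 from -0.065 to 0.97 with a library left out, and Birc3 against heat-killed MJ2 from -0.20 to 0.092. Relb minus Rela changed by -0.090 to 0.27 with surface proteins and by -0.30 to 0.062 with heat-killed MJ2. At this depth counting alone gave Rel an SD of 0.15 to 0.21 and Tnfaip3 one of 0.12 to 0.20 on the log2 scale.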
